A study of Homo sapiens with 12 samples.

Results

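Matrix glycoproteins and fibrillins are secreted proteins that cells assemble outside the membrane and grip through integrins and syndecans. Fibrillins polymerise into microfibrils, which hold latent TGF-beta in the matrix. Matricellular proteins such as tenascin-C, the thrombospondins, SPARC and periostin modulate adhesion and growth factor signalling more than they give tissue its strength, and several of them are known for high levels in glioblastoma. The 10 genes described here (FN1, FBN1, FBN2, TNC, THBS1, THBS2, SPARC, POSTN, TGFBI and EDIL3) were chosen by symbol from the 20289 genes of the deposited count table. All 10 were found in it, and all 10 passed the filter on low counts that left 12821 genes for testing.

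RNA was sequenced from U251, an established human glioblastoma line, in 12 libraries that fall into 4 groups of 3. Knockdown temozolomide cells carried a short hairpin against CD44 (shCD44, by lentivirus) and received 50 µM temozolomide for 24 h. Control temozolomide cells, labelled NC and read here as the control hairpin because the design names no other, received the same dose for the same 24 h. Their genotype label, WT, is also that of the shCtrl libraries, so it does not settle whether they carried a hairpin. If they carried none, a hairpin difference cannot be told apart from the drug or CD44 effect in the comparisons that use them. Knockdown DMSO cells carried shCD44 and received the vehicle, and control DMSO cells carried the control hairpin (shCtrl) and received the vehicle. CD44 is a cell surface receptor for hyaluronan, and temozolomide is a DNA alkylating drug used against glioblastoma. All groups are of a single line, and the labels do not say how many hairpins were used or whether the 3 libraries of a group came from separate cultures, so p-values measure only the spread between libraries, which may be technical.

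Libraries held 13506946 to 24757977 estimated counts, at which 3 counts are worth 0.121 to 0.222 CPM (counts relative to the scaled library total). CD44 itself was at 326 ± 6.60 CPM in knockdown temozolomide cells, 821 ± 25.8 in control temozolomide cells, 420 ± 1.03 in knockdown DMSO cells and 1091 ± 43.4 CPM in control DMSO cells (mean ± SD, n = 3 each), so the libraries matched their hairpin labels. The astroglial and glioma markers were uneven. VIM averaged 2517 to 3842 CPM over the groups, SOX2 275 to 399 and NES 34.6 to 77.5, while GFAP averaged 0.417 to 1.27 and OLIG2 and AQP4 never exceeded 1 count in a library. KRT5, KRT14 and KRT8, usually epithelial, were present at 62.4 to 833 CPM, but EPCAM and CDH1 never exceeded 3 counts.

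The results below turn most on FBN2, THBS1 and POSTN, whose group means spanned more than 1 log2 unit at ample counts (THBS2 spanned more, 2.03, but on few counts), so the sequence just before their transcription starts is shown (RefSeq, GRCh38.p14, on the strand of the gene, 5′ to 3′). Capitals mark matches on either strand to TATAAA, the GC box GGGCGG, the AP-1 motif TGANTCA, the TEAD motif GGAATG and CCAAT. The FBN2 window is chr5:128538246-128538495 on the minus strand, which lies inside the longer span that GENCODE gives the gene, the THBS1 window chr15:39580829-39581078 on the plus strand and the POSTN window chr13:37598845-37599018 on the minus strand, kept to the 174 bases that lie outside annotated exons. The bases just after the FBN2 start matched no GENCODE transcript of the gene, whereas those of THBS1 and POSTN did, so the FBN2 start rests on RefSeq alone.
FBN2: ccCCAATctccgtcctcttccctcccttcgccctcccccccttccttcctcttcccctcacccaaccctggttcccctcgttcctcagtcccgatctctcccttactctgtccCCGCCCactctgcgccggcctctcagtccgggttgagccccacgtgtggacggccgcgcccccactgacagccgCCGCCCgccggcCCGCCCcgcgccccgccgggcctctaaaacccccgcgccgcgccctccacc
THBS1: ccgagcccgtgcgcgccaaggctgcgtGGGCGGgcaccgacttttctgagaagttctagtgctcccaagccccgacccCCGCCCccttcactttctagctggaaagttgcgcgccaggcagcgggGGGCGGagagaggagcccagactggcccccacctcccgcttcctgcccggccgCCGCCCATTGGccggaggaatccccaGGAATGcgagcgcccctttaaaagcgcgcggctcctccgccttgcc
POSTN: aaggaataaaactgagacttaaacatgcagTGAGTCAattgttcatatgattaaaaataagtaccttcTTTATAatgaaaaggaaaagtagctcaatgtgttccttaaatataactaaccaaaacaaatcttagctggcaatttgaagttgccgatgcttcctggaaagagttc
The FBN2 and THBS1 windows held 3 and 4 GC boxes and a CCAAT each, with 72.8% and 69.6% G plus C. In THBS1 a CCAAT match on the minus strand adjoined a GC box, and a GGAATG lay 46 bases before the start. The printed POSTN bases held a TGAGTCA and, on the minus strand, TATAAA. A second TATAAA, on the plus strand 29 bases before the start, lay in the 76 bases not printed, and the full 250 bases had 36.4% G plus C. Among 35116 RefSeq promoter windows, TATAAA occurred in 10.7%, GGGCGG in 42.6%, TGANTCA in 6.57%, GGAATG in 11.9% and CCAAT in 32.0%. A match is a description of these letters only.

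The 4 groups differed in both the amount and the mixture of these transcripts. In bulk RNA fewer cells that make a transcript and less of it per cell cannot be told apart. Counted per transcript length in the deposited FPKM, the 10 genes summed to 737.4 ± 7.11 in knockdown temozolomide cells, 661.2 ± 11.6 in control temozolomide cells, 897 ± 11.9 in knockdown DMSO cells and 854.6 ± 17.8 in control DMSO cells (SD, n = 3 each). TNC took the largest share of that sum in every group, 32.5%, 30.3%, 36.2% and 35.5% in the same group order, and SPARC the next largest, 29.2%, 25.3%, 23.6% and 20.4%. FBN2 took 3.82% in knockdown temozolomide cells against 10.1% in control temozolomide cells, and 4.21% in knockdown DMSO cells against 10.6% in control DMSO cells. In control DMSO cells the order by FPKM was TNC, SPARC, TGFBI, FBN2, POSTN, FN1, THBS1, EDIL3, FBN1 and THBS2, and TGFBI (91.7 ± 4.11) and FBN2 (90.9 ± 5.20) lay within each other's SD. In knockdown temozolomide cells FBN2 (28.1 ± 0.785) had dropped below FN1 (56.8 ± 1.56), THBS1 (34.3 ± 2.17) and EDIL3 (34.1 ± 1.82) and lay close to POSTN (26.8 ± 0.892 FPKM), and THBS1 and EDIL3 could not be ordered beyond their SD.

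**Figure D1:**
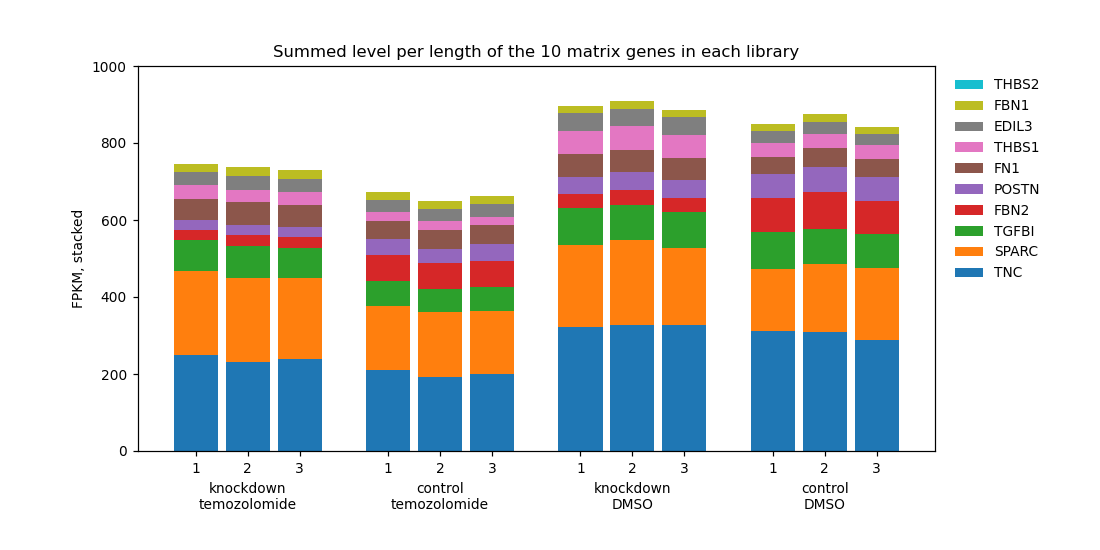
Stacked FPKM (y axis) of the 10 genes in each of the 12 libraries (x axis, library number within its group). TNC and SPARC make up most of each bar, the FBN2 band is thin in the knockdown libraries, and the bars are lower with temozolomide than with DMSO for either hairpin.

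Fold changes below are log2 values with SE from edgeR's quasi-likelihood test on all 12 libraries, and called means an adjusted p under 0.05 after Benjamini-Hochberg correction over all 12821 tested genes. The 10 genes were picked with results from these libraries already known, and which of those results weighed in the choice is not recorded, so their p-values and counts describe them and are no independent support. With CD44 knocked down under DMSO, 5 of the 10 were called higher and 2 lower, where 21.1% of all tested genes were called higher and 21.4% lower. Under temozolomide the knockdown again gave 5 higher and 2 lower, against 22.0% and 20.3% of all genes. Temozolomide gave 1 higher and 7 lower in knockdown cells (all genes 9.05% and 13.2%) and 1 higher and 7 lower in control cells (all genes 11.7% and 15.8%). Knockdown plus temozolomide against neither gave 2 higher and 5 lower (all genes 25.4% and 24.5%), and the difference between the temozolomide responses of the hairpins was called for 1 gene upwards and 1 downwards (all genes 0.437% and 0.616%).

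The median log2 fold change of the 10 genes was 0.16 for the knockdown under either treatment, -0.48 for temozolomide in knockdown cells, -0.57 for temozolomide in control cells, -0.07 for both together and 0.005 for the difference. Over all tested genes the 6 medians lay between -0.004 and 0.013. Scaling by library totals alone, without TMM factors, raised the share of calls that were higher to 61.0% against 49.7% for the knockdown under DMSO, to 70.1% against 40.6% for temozolomide in knockdown cells, to 68.9% against 42.6% for temozolomide in control cells and to 71.2% against 50.9% for both together. That scaling moved the median of all genes to 0.12 for both together, the only comparison in which it moved by over 0.1. With relative log expression factors, 29.6% of the calls for the difference were upwards, against 41.5% with TMM.

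**Figure D2:**
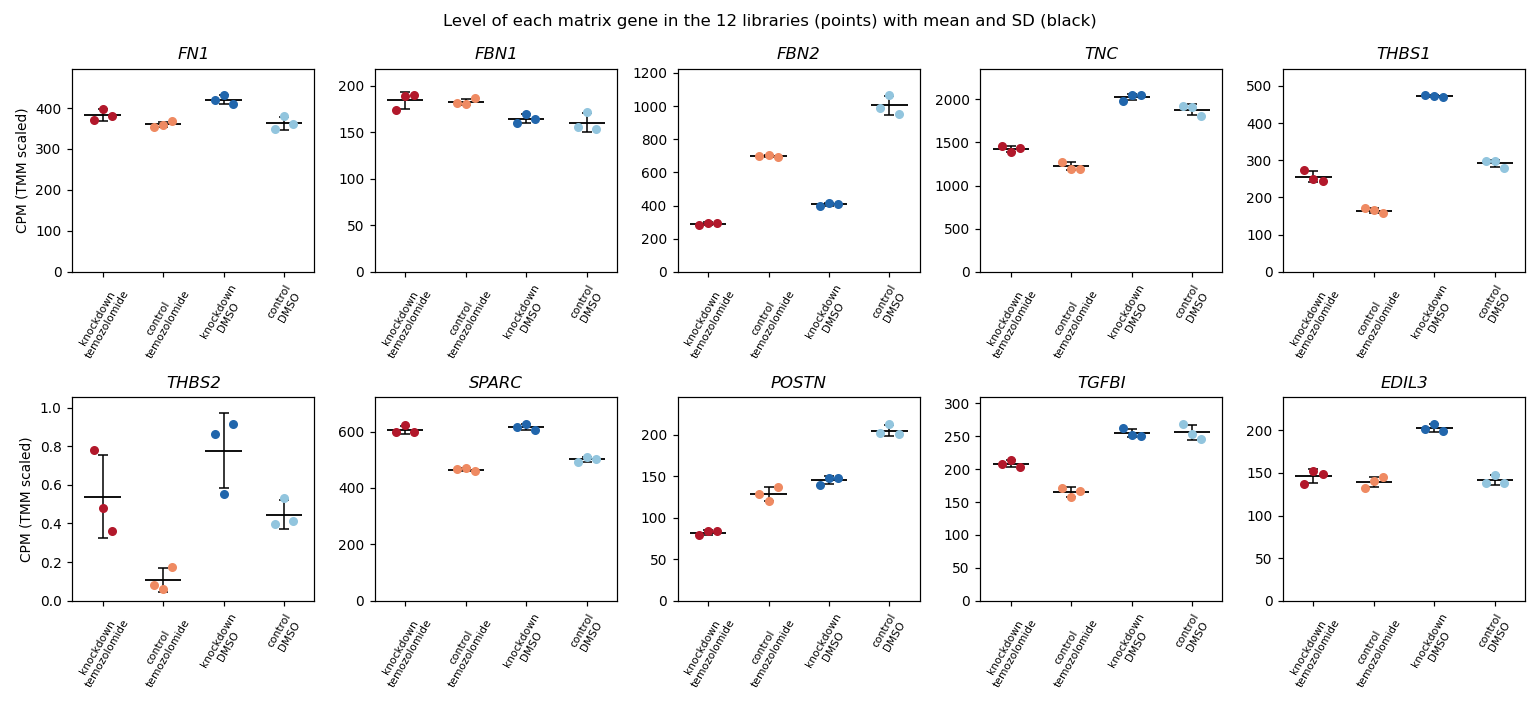
CPM with TMM scaling (y axes, each from 0) of each gene in the 3 libraries of knockdown temozolomide, control temozolomide, knockdown DMSO and control DMSO cells. Points are libraries, and black lines are means with SD. FBN2 and POSTN are lower in knockdown than in control cells under either treatment, while THBS1 and SPARC are higher.

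The fibrillins behaved unlike each other. FBN2, fibrillin-2, which is best known from developing tissue, had 282, 294 and 295 CPM in knockdown temozolomide cells, 696, 702 and 691 in control temozolomide cells, 398, 417 and 408 in knockdown DMSO cells and 989, 1066 and 955 CPM in control DMSO cells. No group overlapped another, and every knockdown library lay below every control library whatever the treatment. With the knockdown FBN2 fell by 59.3% under DMSO (log2 -1.30 ± 0.04, adjusted p = 3.22e-16) and fell by 58.3% under temozolomide (-1.26 ± 0.04, adjusted p = 4.44e-16, edgeR). Temozolomide lowered it by a further step of log2 -0.49 ± 0.04 in knockdown cells (adjusted p = 5.50e-09) and -0.53 ± 0.04 in control cells (adjusted p = 1.02e-09). With both, FBN2 was at 0.290 times the level of neither (log2 -1.79 ± 0.04), where the single changes add up to -1.82. The temozolomide responses differed by log2 0.04, with a 95% interval from -0.07 to 0.15.

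FBN1, fibrillin-1, the main fibrillin of adult microfibrils, had 174, 188 and 190 CPM in knockdown temozolomide cells, 181, 180 and 186 in control temozolomide cells, 160, 170 and 164 in knockdown DMSO cells and 156, 171 and 153 CPM in control DMSO cells. Knockdown and control libraries overlapped under both treatments, while the temozolomide libraries lay above the DMSO libraries of the same hairpin. The knockdown effect was log2 0.04 under DMSO (95% interval -0.05 to 0.13) and 0.01 under temozolomide (-0.08 to 0.10), neither called. Temozolomide raised FBN1 by log2 0.16 ± 0.04 in knockdown cells (adjusted p = 0.0113) and 0.19 ± 0.04 in control cells (adjusted p = 0.00291), which made it the single gene of the 10 called higher with the drug. The call in knockdown cells was lost without knockdown DMSO library 1 (0.14, adjusted p = 0.0576), knockdown temozolomide library 2 (0.14, adjusted p = 0.0564) or knockdown temozolomide library 3 (0.14, adjusted p = 0.0504). It was also lost at an adjusted p below 0.01. On FPKM it was lost with either pseudocount (0.19, adjusted p = 0.0553 with pseudocount 1 and 0.2, adjusted p = 0.0558 with pseudocount 0.1, limma).

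Within a library the FPKM of FBN2 was 1.28 ± 0.0493 times that of FBN1 in knockdown temozolomide cells, 3.12 ± 0.114 times in control temozolomide cells, 1.97 ± 0.0709 times in knockdown DMSO cells and 5.11 ± 0.0902 times in control DMSO cells (SD, n = 3 each). The 4 groups did not overlap in this ratio. FBN2 lies on chr5:128257909-128659185 (GRCh38, GENCODE) and overlaps SLC27A6 on the opposite strand, which had 0.958 to 3.05 CPM. No source used here states a strand-aware count, so reads of such a pair cannot be told apart. FBN1 lies on chr15:48408306-48645849, where no gene of the table overlaps it.

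**Figure D3:**
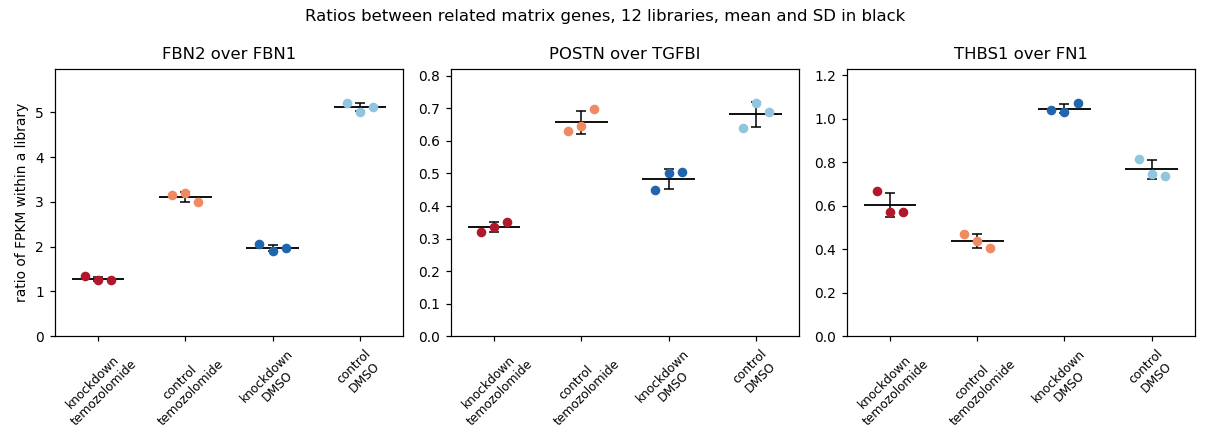
Ratio of FPKM within a library (y axes, from 0) for FBN2 over FBN1, POSTN over TGFBI and THBS1 over FN1 in the 4 groups. Points are libraries, and black lines are means with SD. FBN2 over FBN1 is lowest in knockdown temozolomide cells (mean 1.28) and highest in control DMSO cells (mean 5.11).

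FN1 encodes fibronectin, the adhesive glycoprotein that integrins assemble into fibrils. It had 370, 399 and 381 CPM in knockdown temozolomide cells, 354, 359 and 367 in control temozolomide cells, 420, 432 and 409 in knockdown DMSO cells and 348, 379 and 360 CPM in control DMSO cells. The knockdown DMSO libraries were the highest, and the other 3 groups lay close together, with the knockdown temozolomide libraries overlapping those of control DMSO. FN1 rose with the knockdown under DMSO by 15.9% (log2 0.21 ± 0.04, adjusted p = 9.15e-05), and the value under temozolomide was 0.09 ± 0.04 (adjusted p = 0.0559). It was called there in 6 of 23 alternatives, among them library totals (0.13, adjusted p = 0.00726) and FPKM (0.20, adjusted p = 0.00154, limma with pseudocount 1). Both changes together gave 0.08 (adjusted p = 0.0788), which was called with library totals (0.18, adjusted p = 0.000227) and on FPKM (0.26, adjusted p = 0.000167). Temozolomide lowered FN1 by log2 -0.13 ± 0.04 in knockdown cells (adjusted p = 0.0136) and gave -0.01 in control cells (adjusted p = 0.880). That call in knockdown cells was lost with library totals (-0.07, adjusted p = 0.156), on FPKM with pseudocount 1 (-0.03, adjusted p = 0.623), without knockdown DMSO library 2 (-0.12, adjusted p = 0.0606) or knockdown temozolomide library 1 (-0.11, adjusted p = 0.0663), and without that last library the knockdown under temozolomide was called (0.11, adjusted p = 0.0290).

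TNC, tenascin-C, a large glycoprotein that modulates adhesion, was the most abundant of the 10 in every group. Its level was 1459, 1393 and 1434 CPM in knockdown temozolomide cells, 1278, 1197 and 1196 in control temozolomide cells, 1985, 2050 and 2049 in knockdown DMSO cells and 1925, 1906 and 1805 CPM in control DMSO cells. All temozolomide libraries lay below all DMSO libraries, and within a treatment the knockdown libraries lay above the control libraries. With temozolomide TNC fell by 29.6% in knockdown cells (log2 -0.51 ± 0.03, adjusted p = 5.10e-10) and fell by 34.9% in control cells (-0.62 ± 0.03, adjusted p = 3.91e-11). The knockdown raised it by log2 0.22 ± 0.03 under temozolomide (adjusted p = 1.36e-05) and 0.11 ± 0.03 under DMSO (adjusted p = 0.01). The call under DMSO was lost without control DMSO library 3 (0.08, adjusted p = 0.0573) and on FPKM with either pseudocount (0.10, adjusted p = 0.0873 in both, limma). It was also lost at an adjusted p below 0.01. TNC lies on chr9:115019578-115118257.

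THBS1, thrombospondin-1, which restrains angiogenesis and can activate latent TGF-beta, moved in opposite directions with the hairpin and the drug. It had 273, 250 and 245 CPM in knockdown temozolomide cells, 171, 165 and 157 in control temozolomide cells, 475, 473 and 471 in knockdown DMSO cells and 297, 298 and 280 CPM in control DMSO cells. The 4 groups did not overlap, with control temozolomide cells lowest and knockdown DMSO cells highest. The knockdown raised THBS1 by 62.3% under DMSO (log2 0.70 ± 0.04, adjusted p = 1.56e-11) and by 55.7% under temozolomide (0.64 ± 0.04, adjusted p = 1.09e-10). With temozolomide it fell by 45.8% in knockdown cells (log2 -0.89 ± 0.04, adjusted p = 4.32e-12) and fell by 43.6% in control cells (-0.83 ± 0.04, adjusted p = 1.39e-11). With both, THBS1 fell by 12.1% relative to neither (log2 -0.19 ± 0.04, adjusted p = 0.000698), a call lost with library totals alone (-0.08, adjusted p = 0.0943). It was also lost on FPKM (-0.08, adjusted p = 0.200 with pseudocount 1, and -0.09, adjusted p = 0.203 with pseudocount 0.1, limma). THBS1, on chr15:39581079-39599466, overlaps FSIP1 on the opposite strand, which had 0.461 to 1.35 CPM.

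Against fibronectin, thrombospondin-1 stood at 0.604 ± 0.0546 times the FN1 FPKM in knockdown temozolomide cells, 0.438 ± 0.0325 times in control temozolomide cells, 1.05 ± 0.0208 times in knockdown DMSO cells and 0.767 ± 0.0437 times in control DMSO cells. Its RNA was thus the more abundant of the pair per length only in the knockdown DMSO group.

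THBS2, thrombospondin-2, the close relative of THBS1, was near the limit of detection. It had 13, 10 and 5 counts in knockdown temozolomide cells, 2, 1 and 3 in control temozolomide cells, 13, 9 and 18 in knockdown DMSO cells and 6, 8 and 7 counts in control DMSO cells. The control temozolomide libraries were at or below 3 counts, the floor used here, and below all others. Pooled over the group and scaled for depth, the knockdown temozolomide level was 5.31 times that of control temozolomide cells (28 against 6 counts, exact 95% counting interval 2.16 to 15.7). The ratio for temozolomide in control cells was 0.230 (6 against 21 counts, 0.0760 to 0.589), and for the knockdown under DMSO 1.76 (40 against 21 counts, 1.02 to 3.15). These intervals cover counting error only. edgeR called the knockdown under temozolomide (adjusted p = 0.00290) and temozolomide in control cells (adjusted p = 0.0170) and no other THBS2 comparison. The first call was lost on FPKM with pseudocount 1 (log2 0.12, adjusted p = 0.147, limma). The second call was lost without control DMSO library 2, control temozolomide library 1 or control temozolomide library 2 (adjusted p = 0.0555, 0.0710 and 0.0616). It was also lost at an adjusted p below 0.01. On FPKM it was lost with either pseudocount (log2 -0.08, adjusted p = 0.38 with pseudocount 1 and -0.55, adjusted p = 0.147 with pseudocount 0.1, limma). An antisense transcript overlaps THBS2 in GENCODE.

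SPARC binds collagen and is the second most abundant of the 10. It had 600, 623 and 597 CPM in knockdown temozolomide cells, 465, 471 and 458 in control temozolomide cells, 616, 627 and 605 in knockdown DMSO cells and 493, 510 and 503 CPM in control DMSO cells. All 6 knockdown libraries lay above all 6 control libraries. SPARC rose with the knockdown by 30.5% under temozolomide (log2 0.38 ± 0.03, adjusted p = 1.96e-09) and by 22.7% under DMSO (0.30 ± 0.03, adjusted p = 9.47e-08). Temozolomide gave log2 -0.02 ± 0.03 in knockdown cells (95% interval -0.08 to 0.04, not called) and lowered SPARC by -0.11 ± 0.03 in control cells (adjusted p = 0.00992). The call in control cells was lost with library totals alone (-0.04, adjusted p = 0.289). On FPKM it was lost with either pseudocount (-0.06, adjusted p = 0.471 with pseudocount 1 and 0.468 with pseudocount 0.1, limma).

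POSTN and TGFBI are paralogues that share fasciclin domains, and both proteins bind integrins and collagen. POSTN, periostin, had 78.7, 83.6 and 83.9 CPM in knockdown temozolomide cells, 129, 120 and 137 in control temozolomide cells, 139, 148 and 148 in knockdown DMSO cells and 202, 213 and 200 CPM in control DMSO cells. No group overlapped another, although the control temozolomide and knockdown DMSO libraries nearly met. With the knockdown POSTN fell by 36.2% under temozolomide (log2 -0.65 ± 0.05, adjusted p = 7.26e-10) and fell by 29.1% under DMSO (-0.50 ± 0.04, adjusted p = 1.39e-08). With temozolomide it fell by 43.5% in knockdown cells (-0.82 ± 0.05, adjusted p = 9.21e-11) and fell by 37.2% in control cells (-0.67 ± 0.04, adjusted p = 7.60e-10). With both, POSTN was at 0.401 times the level of neither (log2 -1.32 ± 0.05), where the single changes add up to -1.17, and the difference of the responses was not called (-0.15, adjusted p = 0.226).

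TGFBI, a TGF-beta induced adhesion protein, had 208, 214 and 203 CPM in knockdown temozolomide cells, 172, 158 and 167 in control temozolomide cells, 263, 253 and 250.8 in knockdown DMSO cells and 269, 253 and 246 CPM in control DMSO cells. The DMSO groups overlapped each other, and the knockdown temozolomide libraries lay between them and the control temozolomide libraries. The knockdown gave log2 0.00 under DMSO (95% interval -0.09 to 0.08) and 0.33 ± 0.04 under temozolomide (adjusted p = 1.03e-06). With temozolomide TGFBI fell by 18.3% in knockdown cells (log2 -0.29 ± 0.04, adjusted p = 1.59e-05) and fell by 35.3% in control cells (-0.63 ± 0.04, adjusted p = 5.06e-10). These responses differed by log2 0.34 ± 0.06 (adjusted p = 0.00783, edgeR), a difference kept in sign and not called on FPKM (0.32, adjusted p = 0.124 with pseudocount 1, limma). POSTN stood at 0.336 ± 0.0156 times the FPKM of TGFBI in knockdown temozolomide cells, 0.658 ± 0.0350 times in control temozolomide cells, 0.484 ± 0.0303 times in knockdown DMSO cells and 0.681 ± 0.0387 times in control DMSO cells.

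EDIL3 is a secreted glycoprotein with EGF-like and discoidin domains that binds integrins. Its level was 138, 153 and 149 CPM in knockdown temozolomide cells, 133, 140 and 145 in control temozolomide cells, 202, 207 and 199 in knockdown DMSO cells and 138, 148 and 138 CPM in control DMSO cells. The knockdown DMSO libraries stood alone above the other 9, which overlapped. EDIL3 rose by 43.5% with the knockdown under DMSO (log2 0.52 ± 0.04, adjusted p = 5.01e-09), and the value under temozolomide was 0.07 ± 0.04 (adjusted p = 0.188). With temozolomide it fell by 27.7% in knockdown cells (-0.47 ± 0.04, adjusted p = 8.74e-08) and gave -0.02 ± 0.04 in control cells (adjusted p = 0.761). The responses differed by log2 -0.45 ± 0.06 (adjusted p = 0.00211, edgeR), with -0.45 and adjusted p = 0.0571 on FPKM with pseudocount 1 (limma).

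EDIL3 has the lowest G plus C content of the 10 transcripts, 38.1%, and TNC the highest, 54.0%. Libraries differed in how G plus C related to counts: relative to the mean of all libraries, genes of over 60% G plus C stood -0.08 to -0.03 log2 units from those of under 40% in the knockdown DMSO libraries and 0.07 to 0.22 above them in the control DMSO libraries. The same value was -0.12 to 0.08 in the knockdown temozolomide libraries and -0.13 to 0.04 in the control temozolomide libraries. With a correction for G plus C content, EDIL3 differed by log2 -0.33 between the responses (adjusted p = 0.00658). The same correction gave EDIL3 a called decrease with temozolomide in control cells (-0.12, adjusted p = 0.0151) and a called increase with the knockdown under temozolomide (0.11, adjusted p = 0.0144). Without knockdown temozolomide library 1 that increase was also called (0.12, adjusted p = 0.0456), and so it was with library totals alone (0.11, adjusted p = 0.0436). EDIL3 with both changes together was not called (log2 0.05, adjusted p = 0.348, edgeR). It was called there with library totals alone (0.16, adjusted p = 0.00489) and on FPKM (0.16, adjusted p = 0.0169 with pseudocount 1 and 0.17, adjusted p = 0.017 with pseudocount 0.1, limma).

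**Figure D4:**
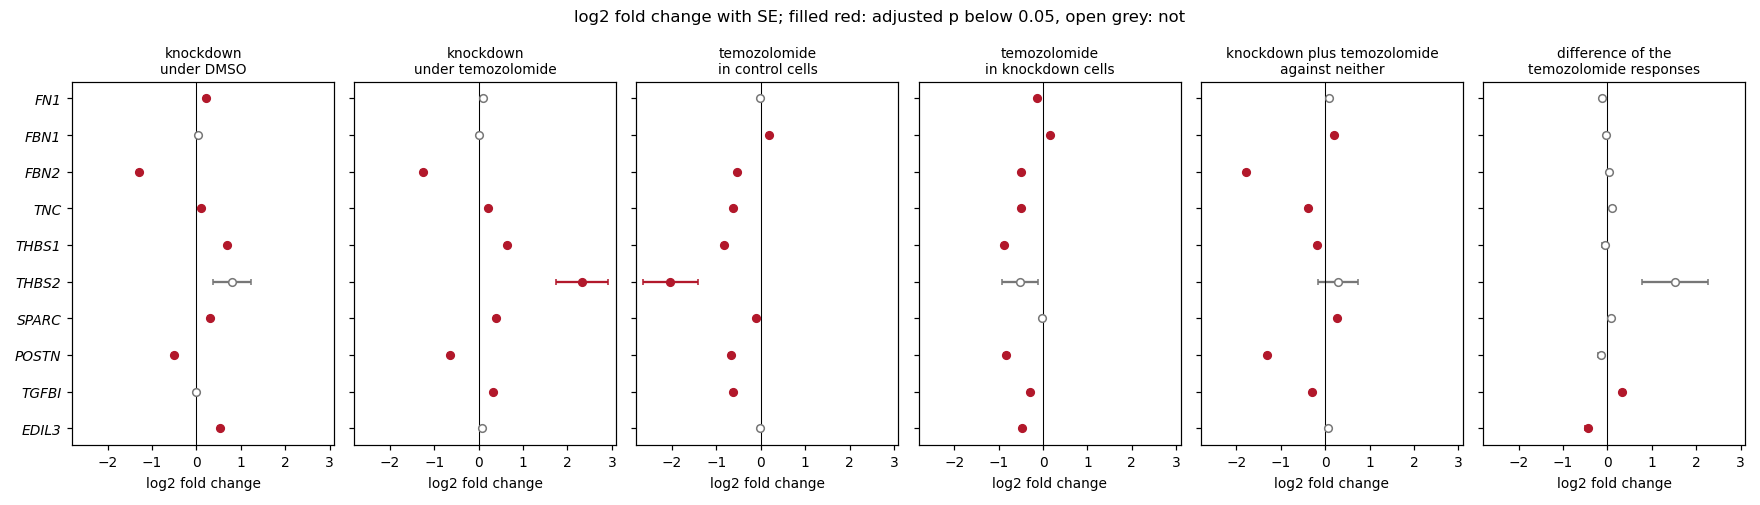
log2 fold change (x axis) with SE for each gene (rows) in the 5 comparisons of groups and the difference of the temozolomide responses. Filled red points are called by edgeR and open grey points are not; FBN2 lies farthest left in both knockdown panels, at -1.30 under DMSO and -1.26 under temozolomide, and THBS2 has the widest error bars.

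For the members whose group means spanned at least 1 log2 unit, the genes with the most similar pattern over the 12 libraries were sought among tested genes of at least 10 CPM, by the root mean square difference of centred log2 CPM. FBN2 was closest to CD44 itself (0.0807), then to PCDH20, a protocadherin (0.0878), and ASIC1, an acid-sensing ion channel (0.0967). Set side by side, CD44 changed by log2 -1.38 ± 0.03 with the knockdown under DMSO, by -1.33 ± 0.03 with it under temozolomide, by -0.36 ± 0.03 with temozolomide in knockdown cells and by -0.41 ± 0.03 with it in control cells. THBS1 was closest to F3, tissue factor (0.0976), followed by NRG1, neuregulin-1 (0.130), and TMEM158 (0.133). POSTN was closest to PTPRZ1, a receptor phosphatase of glial cells (0.0833), COL17A1, a transmembrane collagen (0.0880), and AKR1C3, an aldo-keto reductase (0.0922). THBS2, with its few counts, had no close neighbour: PLAU, FJX1 and THBS1 were nearest at 0.400, 0.416 and 0.431.

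In the lists of related genes, counts stand beside the all-gene shares of 21.1% higher and 21.4% lower with the knockdown under DMSO, 22.0% and 20.3% with it under temozolomide, 9.05% and 13.2% with temozolomide in knockdown cells and 11.7% and 15.8% with it in control cells. Of 26 genes that build microfibrils and elastic fibres with the fibrillins, 20 were tested: with the knockdown 4 were higher and 8 lower under DMSO, and 4 higher and 8 lower under temozolomide, with medians of -0.39 and -0.48. Temozolomide gave none higher and 7 lower in knockdown cells (4 to 8 lower over the alternatives), and none higher and 7 lower in control cells (5 to 8). EFEMP1 (fibulin-3) fell with the knockdown to 267 ± 7.87 CPM in knockdown temozolomide cells against 403 ± 5.73 in control temozolomide cells (log2 -0.59) and to 354 ± 4.93 in knockdown DMSO cells against 492 ± 4.10 CPM in control DMSO cells (-0.48). MFAP5, a microfibril glycoprotein, had 866 ± 19.0 CPM in knockdown temozolomide cells and 1206 ± 19.1 in control temozolomide cells (log2 -0.48), and LOX, the elastin and collagen crosslinking enzyme, had 22.2 ± 1.21 CPM in knockdown DMSO cells and 36.5 ± 1.94 in control DMSO cells (-0.72). LTBP1, which anchors latent TGF-beta to fibrillin, rose with the knockdown by log2 0.38 under temozolomide and 0.27 under DMSO, and THSD4 by 0.72 and 0.46.

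Of 24 other matricellular genes 14 were tested. The knockdown gave 4 higher and 1 lower under DMSO and 4 higher and 2 lower under temozolomide, while temozolomide gave none higher and 8 lower in knockdown cells (4 to 9 lower over the alternatives) and none higher and 7 lower in control cells (4 to 7). CCN1, an integrin ligand induced by growth factors, had 114 ± 6.03 CPM in knockdown temozolomide cells and 53.4 ± 0.965 in control temozolomide cells (log2 1.10), and 166 ± 3.79 in knockdown DMSO cells and 65.7 ± 2.07 CPM in control DMSO cells (1.34). SPP1, osteopontin, a ligand of integrins and of CD44, rose with the knockdown by log2 1.21 ± 0.06 under temozolomide and 1.17 ± 0.06 under DMSO. SPARCL1, the relative of SPARC, went the other way, by -1.12 ± 0.08 and -0.92 ± 0.08. SPOCK1, a testican, fell with temozolomide by log2 -0.64 in knockdown cells and -0.68 in control cells.

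Laminins, nidogens and other matrix glycoproteins (29 tested of 40) gave 12 higher and 5 lower with the knockdown under DMSO and 17 higher and 3 lower under temozolomide, with medians of 0.09 and 0.25. Temozolomide gave none higher and 15 lower in knockdown cells and 1 higher and 19 lower in control cells, with medians of -0.17 and -0.24. Over the alternatives the lower count ran from 5 to 17 in knockdown cells and from 10 to 19 in control cells, lowest on FPKM. LAMB1, a laminin chain, had 126 ± 3.55 CPM in knockdown temozolomide cells and 64.1 ± 2.94 in control temozolomide cells (log2 0.97), and 136 ± 1.07 in knockdown DMSO cells and 64.7 ± 5.24 CPM in control DMSO cells (1.08). SRPX2 fell with temozolomide by log2 -0.51 in knockdown cells and -0.81 in control cells. Among fibrillar collagens and their helpers (20 tested of 21), 4 were higher and 11 lower with the knockdown under DMSO (7 lower on FPKM). Under temozolomide 8 were higher and 10 lower with the knockdown (4 to 7 higher and 7 lower on FPKM). Temozolomide gave 1 higher and 7 lower in knockdown cells and none higher and 9 lower in control cells. COL1A2 had 89.8 ± 2.70 CPM in knockdown temozolomide cells and 178 ± 8.85 in knockdown DMSO cells (log2 -0.98), and 109 ± 7.08 in control temozolomide cells and 208 ± 3.06 CPM in control DMSO cells (-0.92).

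Receptors that bind these proteins were tested for 17 of 21 genes. With the knockdown 10 were higher and 2 lower under DMSO, and 7 higher and 5 lower under temozolomide. The 2 lower under DMSO became 0 without knockdown DMSO library 3 and 1 without control DMSO library 1. ITGB1, the common beta chain of most matrix-binding integrins, had 1350 ± 23.4 CPM in knockdown temozolomide cells and 1040 ± 11.1 in control temozolomide cells (log2 0.38), and 1418 ± 29.4 in knockdown DMSO cells and 1026 ± 19.9 CPM in control DMSO cells (0.47). ITGA2, a collagen receptor chain, rose by log2 0.59 under temozolomide and 0.71 under DMSO, whereas ITGAV, the chain that binds fibronectin, periostin and EDIL3, fell by -0.28 ± 0.04 under temozolomide. Temozolomide gave 1 higher and 7 lower in knockdown cells and 1 higher and 6 lower in control cells, with ITGA3, a laminin receptor chain, at -0.37 in control cells. Over the alternatives the lower count ran from 3 to 8 in knockdown cells and from 2 to 6 in control cells, where it was 3 without control DMSO library 1, and the higher count from 0 to 3 in either.

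The list of matrix processing enzymes, which also holds the inhibitors TIMP2 and TIMP3, had 21 tested of 29 genes. It gave 6 higher and 7 lower with the knockdown under DMSO and 7 higher and 6 lower under temozolomide. CTSB, cathepsin B, had 615 ± 19.1 CPM in knockdown temozolomide cells and 265 ± 7.97 in control temozolomide cells (log2 1.21), and PLAU, urokinase, rose by log2 1.14 ± 0.06 between the same groups. PCSK5 fell with the knockdown by log2 -0.735 under temozolomide and -0.663 under DMSO, and TIMP2 by -0.358 and -0.442. TIMP3, an inhibitor of metalloproteinases, fell with temozolomide by log2 -0.64 in knockdown cells and -0.67 in control cells. With this drug 2 genes of the list were higher and 9 lower in knockdown cells, and 2 higher and 11 lower in control cells. On FPKM with pseudocount 0.1 the lower counts were 4 and 6. In the TGF-beta pathway and its response genes (22 tested of 24), 9 were higher and 2 lower with the knockdown under DMSO and 9 higher and 3 lower under temozolomide (0 lower on FPKM and 1 without control temozolomide library 1). PMEPA1, a TGF-beta response gene, fell with temozolomide by -0.40 in knockdown cells and -0.58 in control cells, and TGFB2 by -0.61 and -0.32; in this list temozolomide gave 2 higher and 6 lower in knockdown cells and 4 higher and 9 lower in control cells. On FPKM the lower counts were 2 and 5, and the 4 higher in control cells became 2 without control DMSO library 1 or control temozolomide library 3.

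**Figure D5:**
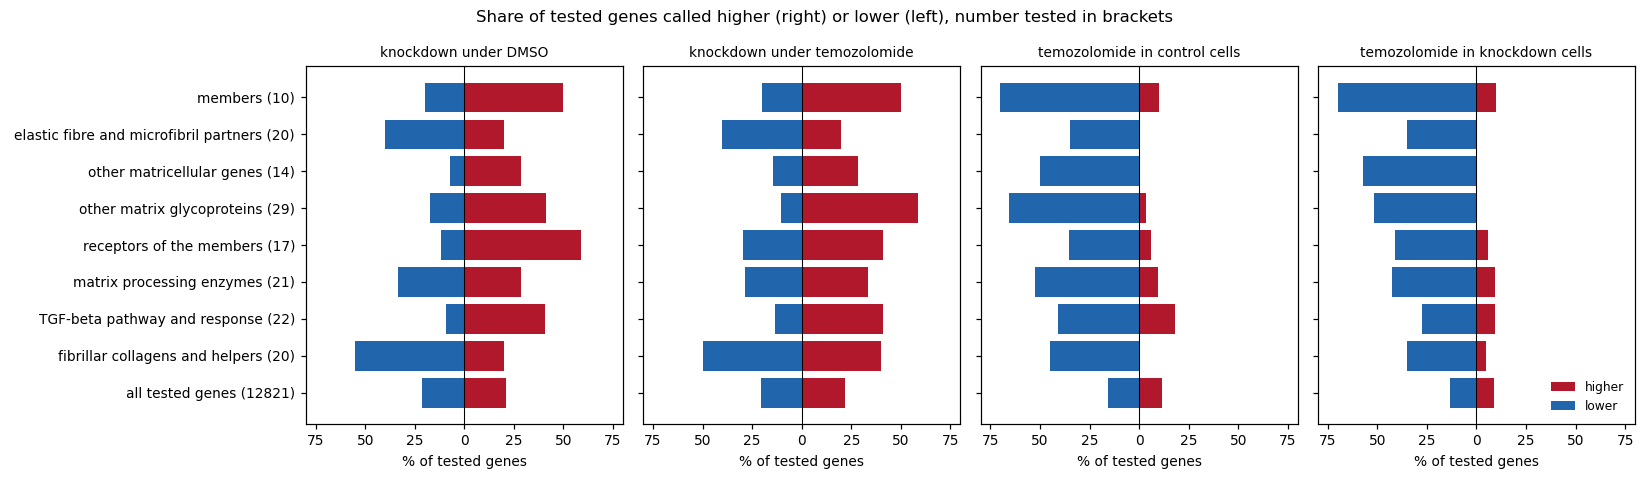
Share of tested genes (x axis, percent) called higher (red, right) or lower (blue, left) in the 4 single comparisons for the 10 members, the 7 lists of related genes and all tested genes, with the number tested in brackets. With temozolomide the blue bars are longer than the red ones in every list, and for all tested genes they are 15.8% against 11.7% in control cells.

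Markers of other cell types moved with the hairpin too. Of 7 fibroblast and pericyte markers 5 were tested, and 4 were higher with the knockdown under temozolomide and 3 under DMSO. Their summed level was 39.8 to 42.6 CPM in knockdown temozolomide libraries, 21.7 to 23.3 in control temozolomide, 46.6 to 55.9 in knockdown DMSO and 24.9 to 27.6 CPM in control DMSO libraries, most of it THY1, while DCN and LUM never exceeded 2 counts. The 3 tested epithelial markers of 5, all keratins, were lower with the knockdown and with temozolomide, summing to 537 to 622, 1024 to 1070, 882 to 991 and 1404 to 1466 CPM in the same group order. Endothelial markers (3 tested of 5) summed to 14.9 to 16, 20 to 23.8, 30.2 to 31.3 and 42.0 to 47.3 CPM, most of it CDH5 (means of 12.6, 21.6, 27.7 and 44.1 CPM). With the knockdown 1 of them was higher and 1 lower under DMSO and 2 higher and 1 lower under temozolomide: KDR averaged 1.52 CPM in knockdown temozolomide cells and 0.186 in control temozolomide cells, and 1.81 in knockdown DMSO cells and 0.169 CPM in control DMSO cells. SYT1, the single tested neuronal marker of 4, was higher with the knockdown under both treatments, with 8.09 and 3.87 CPM in knockdown and control temozolomide cells and 8.85 and 4.03 CPM in knockdown and control DMSO cells. Leukocyte markers summed to at most 1.13 CPM, with AIF1 at 0 in all 12 libraries. The part of these levels in the results for the 10 genes was not tested.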

How the data were processed

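Polyadenylated RNA was sequenced from 12 U251 libraries. The deposited table holds estimated counts per gene, of which 10.7% to 12.0% per library are not whole, and FPKM, both made by the authors. Per the submitters' processing notes the tools were RSEM, StringTie 1.3.1, HISAT2, Bowtie2 2.2.8 and fastp 0.18.0, and the genome build is not given in the sources used here. Gene positions are from GENCODE by identifier, matched for 20171 of 20289.

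Counts were rounded, filtered with filterByExpr, scaled by TMM and fitted in edgeR 4.0.16 (R 4.3.3) to the 4 group means, with quasi-likelihood tests and Benjamini-Hochberg adjustment over 12821 genes. The script was tested on simulated data. CPM compare 1 gene between libraries, and FPKM compare genes. Alternatives used DESeq2 1.42.0, limma 3.58.1 on log2(FPKM + 1) and log2(FPKM + 0.1), other scalings, filters and thresholds, a spline on G plus C content, and each library left out.

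The members and the gene lists were chosen with earlier results of these data known. Besides the members and CD44, up to 2 genes per direction and list with the smallest p and at least 5 CPM were eligible to be named, and the 3 nearest patterns. Same-numbered libraries were not treated as pairs. A chi-square of 2.14 to 5.06 per gene between libraries of a group showed no duplicated library. Library totals ran from 13506946 to 24757977 estimated counts. The common biological coefficient of variation, which is the spread between libraries beyond counting error, was 3.9%.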

Additional observations from a re-analysis of the deposited data

Results flagged for a closer look

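TGFBI responded to temozolomide differently with the 2 hairpins: its log2 change was -0.29 in knockdown cells and -0.63 in control cells, a difference of 0.34 (95% interval 0.22 to 0.45, adjusted p = 0.00783, edgeR interaction term). All 3 knockdown temozolomide libraries lay above all 3 control temozolomide libraries, whereas the DMSO groups overlapped.

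EDIL3 also differed: its log2 change with temozolomide was -0.47 in knockdown cells and -0.02 in control cells, a difference of -0.45 (95% interval -0.58 to -0.32, adjusted p = 0.00211, edgeR interaction term). Over the 22 alternatives its difference ran from -0.49 to -0.33 and that of TGFBI from 0.29 to 0.36, and each was called in 20 of them.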

How the results depend on the processing

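Of 1357 values of the members under alternatives, 1288 kept their direction and their side of the threshold, 33 lost a call, 19 gained one and 17 changed sign, all 17 near 0 and none called. The cause of these changes was not tested. The values that changed sign were 0.06 for FN1 and 0.05 for EDIL3 with temozolomide in control cells under library totals or FPKM, 0.04 (library totals) and 0.03 (FPKM) for SPARC with temozolomide in knockdown cells, and -0.01 for EDIL3 with both changes under the G plus C correction. Leaving out 1 library gave -0.03 to 0.03 for FN1 and -0.05 to 0.02 for EDIL3 with temozolomide in control cells, -0.02 to 0.06 for FBN2 and -0.09 to 0.01 for FBN1 in the difference of the responses, -0.05 to 0.46 for THBS2 with both changes and -0.01 to 0.05 for FBN1 with the knockdown under temozolomide. Of the counts of members called, 4 were higher with both changes under library totals and both FPKM fits, against 2; over all tested genes 39.4% were higher under library totals and 32.2% in either FPKM fit, against 25.4%. With temozolomide in knockdown cells 0 members were higher at an adjusted p below 0.01 and in both FPKM fits, and 0 to 1 with a library left out. Over all tested genes 1311 to 1355 were higher there in the FPKM fits and 733 to 1186 with a library left out, against 1160. For the difference of the responses both FPKM fits called 0 members higher and 0 lower, where over all tested genes they called 0 to 1 higher and 0 to 2 lower. With the replicate number as a replicate block the counts of members called were 5 higher and 2 lower for the knockdown under DMSO, 1 higher and 1 lower for the difference, and FN1 was called with the knockdown under temozolomide (0.09, adjusted p = 0.0349) and with both changes (0.08, adjusted p = 0.0493). The 18 same-numbered pairs correlated at -0.077 to 0.136, and 6 of 12 libraries were closest to their own number, so the numbers were not taken to pair the libraries. Over all tested genes the calls for the difference ran from 0 to 210 higher and 0 to 359 lower, against 56 and 79, and the block gave 103 and 119. Of 1918 counts over the gene and marker lists, 1696 stayed within 1.5 times. With 1 library left out the lower count with temozolomide in knockdown cells ran from 10 to 17 for the other matrix glycoproteins. Depth limits THBS2, with 1 to 18 counts per library.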
